A study of Mus musculus with 14 samples.

Results

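The genes Zp1, Zp2 and Zp3, which encode the mouse egg coat, are described here in single oocytes with and without maternal Kdm1a. They were taken by name, as 3 of the 24064 genes in the count table. The zona pellucida is a coat of glycoproteins that the growing oocyte secretes around itself. ZP2 and ZP3 form its filaments, ZP1 cross-links them, and ZP2 is the protein to which sperm bind and which is cleaved after fertilization. The 3 transcripts are known to accumulate while the oocyte grows and to decline by the time it is ovulated. The promoter of Zp3 is active in growing oocytes, and for this reason it is widely used to drive Cre recombinase in them.

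The series compared control and mutant oocytes by poly(A)-primed RNA-seq of single cells. The wt/wt controls (wt1, wt3, wt4 and wt5) carry unmodified Kdm1a on the C57BL/6J strain, and the f/f control (C3) carries floxed alleles without Cre on a mixed B6;129 strain. The mutants (D1, D2, D3, D4 and D7, labelled mko/mko) are of the same mixed strain, and come from f/f females with a Cre transgene under the Zp3 promoter, so that the first exon of Kdm1a is lost during oocyte growth. The study describes the oocytes as ovulated. No age of the females is given for the oocytes, and the transgene is not counted as a row of its own. The promoter thus belongs to 1 of the 3 genes measured, while the deletion concerns another gene.

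Libraries that share an oocyte name (C3, D3, D4 and D7 have 2 each) were summed, so that 14 libraries gave 10 oocytes, with 1375187 to 6928548 counts each. Levels are in CPM, counts scaled to a common library size, here with edgeR's TMM factors unless library totals are named. Summing leaves 5 control and 5 mutant oocytes, the numbers in the methods, although the sample descriptions number each library as an oocyte of its own. The labels do not say whether oocytes of a group came from separate females, so p-values measure the spread between these oocytes. Kdm1a had 27 to 669 counts in control and 0 to 10 in mutant oocytes. All 8 oocyte markers had counts in each genotype, and their summed level was 11918 to 29477 CPM with the wt/wt genotype, 52905 with f/f and 54259 to 107501 with mko/mko. Of 12 cumulus and granulosa markers, 7 were at 0 in the wt/wt, 9 in the f/f and 7 in the mutant oocytes, with summed levels of 20.6 to 79.0, 71.0 and 83.5 to 156 CPM. Amh, Foxl2, Fshr, Inha, Ptx3 and Tnfaip6 had 0 counts in every oocyte, while Cyp19a1, Kitl and Nr5a2 had counts in each. Cyp19a1 carried the higher sums of the mutants, with 79.2 to 147 CPM against 8.52 to 53.1 in wt/wt and 62.8 in f/f oocytes. Median levels in mutant against wt/wt oocytes were 2.14 against 9.46 CPM for Nr5a2, 0 against 1.72 for Has2 and 4.94 against 3.82 for Kitl. The wt/wt oocytes differ from the mutants in strain and in library naming as well as in Kdm1a, and these cannot be told apart except through the 1 f/f oocyte. Scaling by library totals in place of TMM lowered the median difference over all genes (log2) from 0.17 to -0.23 and the portion of calls in the higher direction from 56.8% to 36.6%.

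Zp1 is found on chromosome 19 (build GRCm38, or mm10), from 10914287 to 10920632 on the minus strand, with 12 exons and a transcript of 1963 bases. Zp2 lies on chromosome 7 from 120126772 to 120145291 on the minus strand, with 18 exons and a transcript of 2221 bases. Zp3 lies on chromosome 5 from 135980099 to 135988624 on the plus strand, with 8 exons and a transcript of 1323 bases. The genes are thus unlinked, none overlaps another annotated gene on either strand, and each transcript is shorter than the stretch from the 3' end that the cDNA method covers. The 2 other rows of the table with such names, the pseudogene Zp4-ps and the sperm gene Zp3r, held 3 and 8 counts over all oocytes, and were seen only after the table was opened.

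Because the Zp3 promoter also supplies the Cre of the deletion, the 250 bases before the RefSeq start of Zp3 are shown (GRCm38.p6, chr5:135979855-135980104, plus strand). RefSeq promoter sequences were at hand for Zp3, and not for Zp1 and Zp2. Capitals mark matches to the E-box CANNTG, the motif of basic helix-loop-helix factors such as FIGLA, which binds an E-box in the promoters of the Zp genes, and to TATAA, both searched on either strand.

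Zp3: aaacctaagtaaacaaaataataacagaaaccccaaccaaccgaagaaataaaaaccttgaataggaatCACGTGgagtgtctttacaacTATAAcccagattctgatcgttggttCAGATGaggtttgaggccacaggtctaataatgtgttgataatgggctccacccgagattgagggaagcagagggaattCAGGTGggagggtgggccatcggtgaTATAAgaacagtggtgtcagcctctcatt

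Counting back from the start, the E-box matches begin at -181 (CACGTG), -134 (CAGATG) and -55 (CAGGTG), and the TATAA matches at -160 and -29. An E-box is common at this length: 66.2% of 32851 promoter windows of 250 bases held at least 1 match, and 12.2% held at least 3. The letters CAGGTG were in 17.2% of windows. A TATAA match was in 22.8%, and at least 2 matches were in 8.66%. These matches describe the sequence and do not show which are bound.

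Zp2 showed the largest difference of the 3 genes. It had 48.6, 44.0, 35.2 and 143 CPM in the wt/wt oocytes wt1, wt3, wt4 and wt5, and 36.6 in the f/f oocyte. Among the mutants it had 3805 CPM in D1, 655 in D2, 1514 in D3, 1882 in D4 and 425 in D7. Every mutant oocyte lay above every control oocyte, and the highest control was wt5. The means were 61.5 ± 45.9 CPM in controls and 1656 ± 1342 in mutants (SD, n = 5 each). In the quasi-likelihood test of edgeR the log2 fold change was 4.75 (SE, standard error, 0.64), with an adjusted p = 0.000448 (Benjamini-Hochberg), so that the fitted level was 26.9-fold higher in mutants. The fold was 17.8 without D1 and 41.8 without wt5, and Zp2 was called in both cases.

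Zp3 moved in the same direction over a wider range of mutant levels. Its levels were 112, 142, 173 and 444 CPM in wt1, wt3, wt4 and wt5, and 149 in the f/f oocyte. Among mutants, D1, D2, D3, D4 and D7 reached 5945, 1370, 531, 1460 and 528 CPM. The lowest mutants, D7 and D3, were close to wt5, and the groups did not overlap on this scale. On library totals they did, with 605 CPM in wt5 against 459 in D3 and 495 in D7. The means were 204 ± 136 CPM in controls and 1966 ± 2268 in mutants (SD, n = 5 each). The log2 fold change was 3.27 (SE 0.66, adjusted p = 0.00276 from edgeR), or 9.64-fold. The fold was 4.73 without D1, 14.4 without wt5 and 6.40 over library totals, and Zp3 was called in each case.

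Zp1 differed least, and its call rested on few oocytes. It had 24.9, 35.8, 52.8 and 15.7 CPM in wt1, wt3, wt4 and wt5, and 66.2 in the f/f oocyte. In D1, D2, D3, D4 and D7 it had 850, 128, 13.9, 88.4 and 61.3 CPM. The groups overlapped: D3 had the lowest level of all oocytes, and D7 lay below the f/f oocyte. The means were 39.1 ± 20.5 CPM in controls and 228 ± 350 in mutants (SD, n = 5 each), with a log2 fold change of 2.54 (SE 0.80, adjusted p = 0.0283 from edgeR). Without D1, which had the highest level of each of the 3 genes, the value was 0.93 (adjusted p = 0.250 from edgeR). It was also past 0.05 without wt1 (log2 fold change 2.41, adjusted p = 0.0656 from edgeR), without wt3 (2.59, 0.0606) and without wt5 (2.43, 0.0551), and with limma voom it was 1.38 (adjusted p = 0.192 from limma).

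A gene was called where its adjusted p was below 0.05 and its level changed by 1 or more on the log2 scale. All 3 genes were called higher, against a background of 14.7% of the 9198 genes tested (25.9% in either direction). Of all genes tested, 8.09% had every mutant oocyte above every control oocyte, as Zp2 and Zp3 did. Under 23 other settings Zp1, Zp2 and Zp3 were each higher in mutants in all 23, and were called in 15, 22 and 21 of them. Of these settings 2, the wt/wt oocytes alone as control and the leaving out of C3, are the same fit. The plot of fold changes under each setting shows where the calls were lost.

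**Figure D1:**
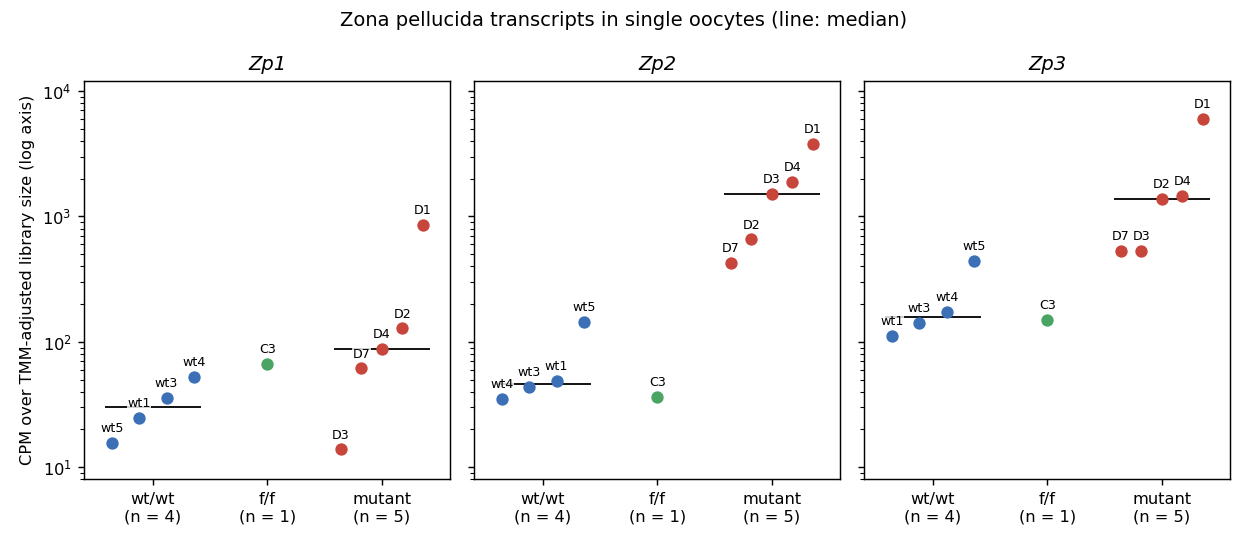
Level of Zp1, Zp2 and Zp3 in each oocyte, in CPM over TMM-adjusted library sizes on a log axis, by genotype (wt/wt n = 4, f/f n = 1, mutant n = 5, lines at medians). The mutant oocytes lie above the controls for Zp2 (425 to 3805 against 35.2 to 143 CPM) and Zp3 (528 to 5945 against 112 to 444), and overlap them for Zp1, where D3 is at 13.9.

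The genotypes were also fitted as 3 groups, with the f/f oocyte assumed to vary like the others because it stands alone. Against wt/wt oocytes, the log2 fold change in mutants was 2.82 for Zp1, 4.61 for Zp2 and 3.17 for Zp3 (adjusted p = 0.0185, 0.000128 and 0.00249 from edgeR), where the background was 18.7% called higher and 12.9% called lower. The Zp1 value was 1.20 (adjusted p = 0.119 from edgeR) without D1, 2.70 (0.0526) without wt1 and 2.94 (0.0510) without wt3, so its call was lost in each case. Against the f/f oocyte, which shares the strain of the mutants, the values were 1.78 (SE 1.43) for Zp1, 5.50 (1.31) for Zp2 and 3.72 (1.31) for Zp3. None of these was called (adjusted p = 0.499, 0.05004 and 0.134 from edgeR), in a comparison in which the background was 1.14% of genes, 0.185% being higher and 0.957% lower. Zp2 was called against f/f when wt5, D2, D4 or D7 was left out, with log2 fold changes of 5.55, 5.75, 5.47 and 5.81. With DESeq2 both Zp2 (5.58, adjusted p = 4.54e-06) and Zp3 (3.80, adjusted p = 0.00840) were called against f/f.

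The f/f oocyte itself was not called different from the wt/wt oocytes for any of the 3 genes. Its log2 difference from them was 1.03 (SE 1.21) for Zp1, -0.89 (0.97) for Zp2 and -0.54 (1.05) for Zp3 (adjusted p = 0.751, 0.737 and 0.868 from edgeR), where the background was 3.49% of genes, 3.19% being higher and 0.304% lower. In levels, C3 lay above the wt/wt oocytes for Zp1 and within their range for Zp2 and Zp3. Over library totals it was within their range for Zp1 (43.0 against 21.4 to 68.2 CPM) and below every wt/wt oocyte for Zp2 (23.8 against 45.5 to 195) and Zp3 (97.1 against 147 to 605). The log2 differences were then 0.01, -1.93 and -1.59, again not called (adjusted p = 1, 0.259 and 0.362 from edgeR).

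Levels were compared between the genes per kilobase of transcript. In wt/wt oocytes Zp3 was highest, at 84.4 to 336 CPM per kb, and did not overlap Zp2 (15.8 to 64.4). Zp2 and Zp1 (8.00 to 26.9) overlapped, so their order was not separable there. In mutant oocytes Zp3 had 399 to 4493, Zp2 191 to 1713 and Zp1 7.07 to 433 CPM per kb, with overlap between neighbours over oocytes. Within single oocytes Zp3 exceeded the others in 9 of 10, the exception being D3, in which Zp2 had 682 and Zp3 401 CPM per kb. Zp2 exceeded Zp1 in 8 of 10, all 5 mutants among them, the exceptions being wt4 and C3. Among 22829 genes with an exon length, Zp3 ranked 97 to 414 by counts per kb in wt/wt oocytes and 19 to 140 in mutants, while Zp2 ranked 643 to 1935 and 46 to 267. Zp1 ranked 1214 to 2537 in wt/wt oocytes and 145 to 2723 in mutants. These ranks used the length of all exons, while the cDNA method covers a stretch from the 3' end. Genes longer than that stretch are thus ranked too low, which raises the ranks of short genes such as these. Together the 3 genes took 0.0244% to 0.0821% of all counts with the wt/wt genotype, 0.0164% with f/f and 0.0952% to 0.824% with mko/mko.

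The 3 transcripts did not change by the same factor. The ratio of 2 genes' counts within an oocyte needs no scaling between libraries, so it shows unequal change directly. Before each ratio 0.5 was added to the counts of both genes, and mutant and control oocytes were compared by an exact two-sided permutation test over 252 groupings, whose smallest possible p is 0.00794. The 3 ratios were adjusted together by Benjamini-Hochberg.

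Zp2 rose more than Zp3. The ratio of Zp2 to Zp3 counts was 0.437, 0.312, 0.204 and 0.323 in wt1, wt3, wt4 and wt5, and 0.246 in the f/f oocyte. In D1, D2, D3, D4 and D7 it was 0.640, 0.478, 2.85, 1.29 and 0.806. All 5 mutant oocytes lay above all controls, and in D3 and D4 Zp2 had more counts than Zp3. The mean log2 ratio was -1.77 ± 0.42 in controls and -0.03 ± 1.01 in mutants (SD, n = 5 each), a difference of 1.74 (exact permutation p = 0.00794, adjusted p = 0.0238). The difference stayed between 1.35 and 2.00 with an adjusted p under 0.05 in each of 15 other settings, the leaving out of each oocyte among them, of which 2 use the same oocytes.

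The ratio of Zp1 to Zp2 was lower in mutants. The ratio of Zp1 to Zp2 was 0.514, 0.815, 1.497 and 0.111 in wt1, wt3, wt4 and wt5, and 1.80 in the f/f oocyte. In D1, D2, D3, D4 and D7 it was 0.223, 0.196, 0.00929, 0.0470 and 0.145. The control wt5 lay within the range of the mutants, and the other controls lay above all mutants. The mean log2 ratio was -0.60 ± 1.61 in controls and -3.69 ± 1.92 in mutants (SD, n = 5 each), a difference of -3.09 (exact permutation p = 0.0317, adjusted p = 0.0476). This call was lost when any of 6 oocytes was left out: the difference was -3.18 without wt1, -3.02 without wt3, -2.80 without wt4, -2.73 without C3, -2.33 without D3 and -2.91 without D4 (adjusted p = 0.0714 to 0.107, exact permutation).

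For Zp1 against Zp3 the difference did not pass the test. The ratio was 0.225, 0.254, 0.305 and 0.0358 in wt1, wt3, wt4 and wt5, 0.443 in the f/f oocyte, and 0.143, 0.0936, 0.0265, 0.0606 and 0.117 in D1, D2, D3, D4 and D7. The control wt5 lay below all mutants but D3. The mean log2 ratios were -2.36 ± 1.41 and -3.72 ± 0.97 (SD, n = 5 each), a difference of -1.36 (exact permutation p = 0.119, adjusted p = 0.119). Without wt5 the difference was -1.97 (adjusted p = 0.0159, exact permutation), so the outcome turned on that oocyte.

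**Figure D2:**
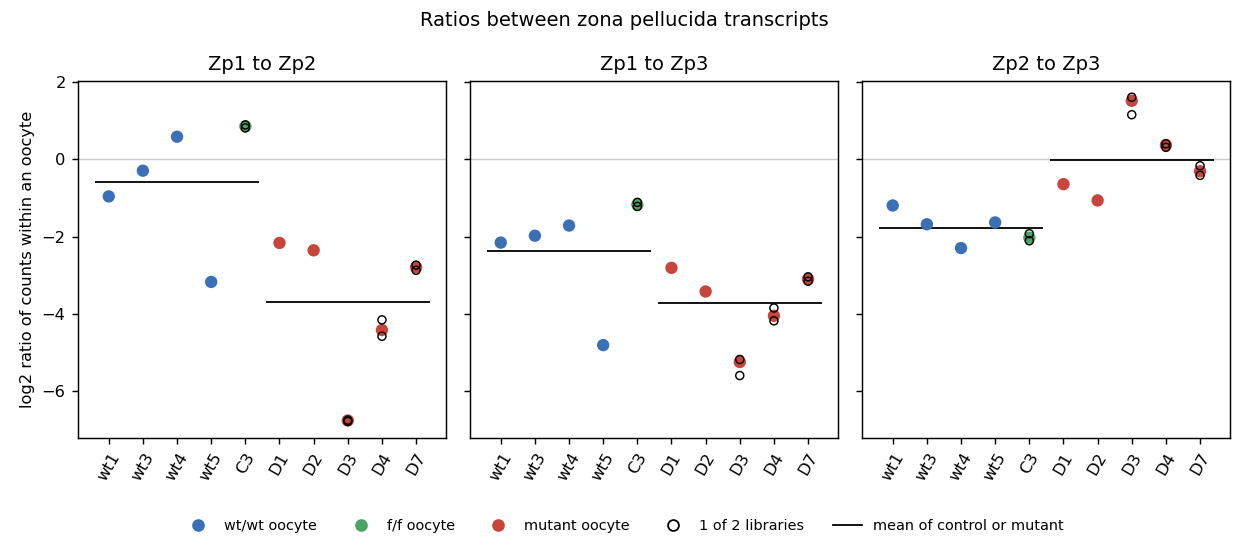
Log2 ratio of counts between pairs of zona pellucida genes in each oocyte (filled points), with the single libraries of C3, D3, D4 and D7 as open circles and the means of the 5 control and 5 mutant oocytes as lines. The Zp2 to Zp3 ratio of every mutant lies above that of every control, and D3 has the lowest Zp1 to Zp2 ratio.

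The libraries of a shared name were also set side by side. In D3 the library with the suffix DNA and the other had 805 and 1513 CPM of Zp2 over library totals, 363 and 498 of Zp3, and 7.53 and 13.8 of Zp1, the last from 7 and 32 counts. The Zp1 to Zp2 ratio of D3 was 0.00936 and 0.00914. The Zp2 to Zp3 ratio was 2.22 and 3.04 in D3, 1.24 and 1.32 in D4, 0.890 and 0.750 in D7, and 0.232 and 0.264 in C3. The low Zp1 of D3 was present in both of its libraries. They share an oocyte name, so they are not independent, and a loss before they were made was not tested.

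The mutants also differed from each other. From the lowest to the highest mutant oocyte the level changed 61.2-fold for Zp1, 8.95-fold for Zp2 and 11.3-fold for Zp3, against 4.21-, 4.07- and 3.98-fold among the controls. D1 was highest for all 3 genes, and its total of 2346547 counts was the median of the mutants. Among the controls, wt5 was highest for Zp2 and Zp3 and lowest for Zp1.

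To ask which genes varied across oocytes in the most similar way, each gene's log2 CPM (prior count 2) was centred on its mean over the 10 oocytes and the mean absolute difference from a Zp gene was taken. This is a description over 10 oocytes that include the contrast of the groups. For Zp2 the nearest genes were Nlrp14 (0.42), an oocyte gene of the NLR family, 7420461P10Rik (0.49) and Nsf (0.51), an ATPase of membrane fusion, against a median of 2.22 over all genes tested. For Zp3 they were Mcf2l (0.31), Pfdn5 (0.35), a subunit of the prefoldin chaperone, and Cox6b1 (0.35), a subunit of cytochrome c oxidase, against a median of 1.51. For Zp1 they were 4930481A15Rik (0.49), D630032N06Rik (0.59) and Rabac1 (0.60), against a median of 1.38. The nearest genes of Zp1 were counted sparsely, with 83 and 40 counts over all oocytes for 4930481A15Rik and D630032N06Rik, and Mcf2l had 145.

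Among themselves the Zp genes were not nearest neighbours. Zp3 was in place 101 of 9197 by likeness to Zp2 (0.90), and Zp2 in place 673 by likeness to Zp3. Zp1 was in place 1449 by likeness to Zp3 (1.07) and Zp3 in place 1217 by likeness to Zp1. Zp1 and Zp2 were the least alike (1.74): Zp1 was in place 1885 for Zp2, and Zp2 in place 7714 for Zp1, farther from it than the median gene. Nlrp14, the gene nearest to Zp2, had 314, 269, 343 and 1106 CPM in wt1, wt3, wt4 and wt5, 443 in the f/f oocyte, and 14574, 5226, 6923, 16806 and 2179 CPM in D1, D2, D3, D4 and D7. It was chosen for its likeness to Zp2 over these oocytes, so its pattern is a description. Its highest mutant was D4, whereas that of Zp2 was D1.

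Genes that act with the Zp genes were then described from hand-written lists, as counts of called genes beside the background of 14.7% called higher and 11.2% called lower. The transcription factors came first. Of 9 listed, 8 were tested, of which 4 were called higher, 1 lower and 3 not at all, with a median log2 fold change of 1.63 against 0.17 over all genes tested. Figla, the factor that switches on the Zp genes in primordial follicles, had 0, 0, 1 and 0 counts in wt1, wt3, wt4 and wt5, and 4 in the f/f oocyte. In D1, D2, D3, D4 and D7 it had 61, 20, 9, 316 and 2 counts. On CPM every mutant lay above every control, the lowest being 0.997 CPM in D7 against 0.888 in the f/f oocyte, which is within counting error (adjusted p = 0.00186 from edgeR).

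Lhx8, a homeobox factor of early oocytes, had 20.6 ± 6.17 CPM in controls and 185 ± 155 in mutants (SD, n = 5 each), and its log2 fold change was 3.17 (SE 0.58, adjusted p = 0.00161 from edgeR). For Nobox, another homeobox factor of oocytes, the levels were 6.62 ± 4.76 and 41.1 ± 23.6 CPM and the log2 fold change 2.62 (0.66, adjusted p = 0.00938 from edgeR). Its groups overlapped, D7 with 8.97 CPM lying below wt1 (11.1) and C3 (10.7). Tcf4 was the fourth called higher (3.38), and its call was lost without wt1, wt3, wt4, wt5, D2 or D7, each of which left 3 genes called higher. The gene called lower was Taf4b, a gonadal subunit of TFIID (-1.96, adjusted p = 0.0166 from edgeR). It was no longer called without wt4, which left 0 lower genes in the list. Tcf3, whose product E2A pairs with FIGLA, was not called (37.6 ± 17.6 against 43.6 ± 13.4 CPM, adjusted p = 0.726 from edgeR). Sohlh1 had 0 counts.

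Of 8 genes for the egg coat and gamete binding, 7 were tested, with 3 called higher, 1 lower and 3 not called, and a median of 0.79. Cd9, the egg tetraspanin needed for fusion with sperm, had 6.22 ± 3.43 CPM in controls and 35.3 ± 10.9 in mutants (SD, n = 5 each), and its log2 fold change was 2.53 (SE 0.47, adjusted p = 0.00184 from edgeR). Izumo1r, the receptor for sperm IZUMO1, is listed as Folr4 and rose from 22.5 ± 10.01 to 71.1 ± 14.5 CPM (log2 fold change 1.65, adjusted p = 0.00557 from edgeR). For both genes every mutant oocyte lay above every control. Oosp2, an oocyte-secreted protein, was higher by 1.90 on the log2 scale, while its relatives Oosp1 (-0.29) and Oosp3 (-0.93) were not called. Plac1 was called lower (-2.92, adjusted p = 0.0312 from edgeR), and this call was lost without C3, D1, D3, D4 or D7, each of which left 0 lower genes. Oosp3 was called lower over library totals (-1.34, adjusted p = 0.00433 from edgeR) and without wt5 (-1.03, adjusted p = 0.0445 from edgeR), which made 2 lower genes in each case.

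Astl encodes ovastacin, the cortical granule protease that cleaves ZP2. It had 452, 296, 362 and 1095 CPM in wt1, wt3, wt4 and wt5, and 1735 in the f/f oocyte. In D1, D2, D3, D4 and D7 it had 2282, 1358, 1037, 1141 and 979 CPM. The f/f oocyte lay above 4 of the 5 mutants, and the difference was not called (log2 fold change 0.79, standard error 0.48, adjusted p = 0.232 from edgeR). This outcome turned on the f/f oocyte: without it the log2 fold change of Astl was 1.31 and was called (adjusted p = 0.0298 from edgeR).

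Of 9 genes for secretion, glycosylation and cleavage of the coat proteins, 8 were tested, with 3 called higher, 0 lower and 5 not called, and a median of 1.10. Ganab, the glucosidase that trims N-glycans in the endoplasmic reticulum, had 1.31 ± 1.22 CPM in controls and 19.1 ± 13.7 in mutants (SD, n = 5 each, log2 fold change 3.85, adjusted p = 0.00273 from edgeR). Calr, the chaperone calreticulin, had 15.2 ± 14.6 and 107 ± 89.3 CPM (2.82, adjusted p = 0.00789 from edgeR), with overlap of the groups. Furin, a protease of the secretory pathway, had 328 ± 190 and 696 ± 164 CPM (1.09, adjusted p = 0.0446 from edgeR), with the f/f oocyte at 658 within the mutant range. Furin was no longer called over library totals, or when wt1, wt3, wt4, wt5, D1, D2, D3 or D7 was left out (adjusted p = 0.0576 to 0.114 from edgeR). Without D7 Mgat1, an enzyme of N-glycan synthesis, was called higher instead (1.95, adjusted p = 0.0474 from edgeR). C1galt1c1, which helps to build O-glycans, was called lower over library totals or upper quartiles and without wt3 or C3. The list also had 1 gene called lower with DESeq2 and with every library as its own sample.

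Of 12 genes for cortical granules and the release of zinc, which hardens the coat at fertilization, 10 were tested, with 4 called higher, 2 lower and 4 not called, and a median of 0.99. Mt1, a zinc-binding metallothionein, had 0.222 to 6.47 CPM in controls and 49.5 to 670 in mutants (log2 fold change 6.33, adjusted p = 0.000549 from edgeR), and its close relative Mt2, with which reads may be shared, was at -2.83 and not called. Nsf, of the fusion machinery, had 12.7 ± 10.6 and 304 ± 236 CPM (4.58, adjusted p = 0.000550 from edgeR). The zinc importer Slc39a10 fell from 821 ± 160 to 236 ± 105 CPM (-1.80, adjusted p = 0.00308 from edgeR), and the exporter Slc30a4 was lower by 1.58 on the log2 scale (-1.58). In both of these every mutant lay below every control. Rab27a (2.45), a regulator of granule transport, was no longer called without wt1, wt3, wt4, D1 or D4. Mt2 was called lower over library totals and without C3 or D4. The list also had 3 genes called lower, in place of 2, with DESeq2, with no filter, with 1 library per oocyte and with thinned counts.

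Other genes with a ZP domain, the polymerization module shared with Zp1, Zp2 and Zp3, were mostly near 0. Of 11 listed, 10 had a count and 4 were tested. Eng (2.08), Dmbt1 (2.68) and Umodl1 (1.68) were called higher with overlapping groups (the f/f oocyte had 105 CPM of Eng, within the mutant range) and adjusted p of 0.0394, 0.0472 and 0.0492 from edgeR, and Tgfbr3 was not called (-0.33). Those 3 calls were fragile: 0 genes of the list were called without wt1, without wt3 or without wt4, and 1 was called without wt5, C3, D1, D2 or D4. Zpld1, Tecta, Tectb, Gp2 and Oit3 had 1 to 3 counts over all oocytes, Umod had 13 and Cuzd1 had 0. With library totals or upper quartiles as scaling, 1 gene of this list was called higher.

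Of 8 markers of oocyte identity, 4 were called higher, 0 lower and 4 not, with a median of 1.45. Ooep, of the subcortical maternal complex, rose from 111 ± 108 to 2591 ± 2482 CPM (4.55, adjusted p = 0.000763 from edgeR), Dppa3 from 1861 ± 2070 to 9008 ± 2604 (2.27, adjusted p = 0.00817) and Zar1 from 1589 ± 848 to 5368 ± 2172 (1.76, adjusted p = 0.00876), while Mos (0.42) and Kit (-0.47) were not called. The call of Gdf9 (1.61), an oocyte growth factor, was lost without wt1, wt3, wt4, wt5, D1 or D2, and Bmp15 and Nlrp5 were called higher without wt5. For Dppa3 the f/f oocyte had 5556 CPM, against 847 to 1151 in the wt/wt and 7020 to 12672 in the mutant oocytes. For Zar1 it had 2843 CPM, next to D7 with 2962 and above the 904 to 2093 of the wt/wt oocytes, whereas for Ooep it had 78.6, within their range. Of the 12 cumulus and granulosa markers 3 were tested, with a median of -0.34. Cyp19a1 was called higher (37.8 ± 22.6 against 106 ± 26.7 CPM, adjusted p = 0.0262 from edgeR), while Nr5a2 (-1.60) and Kitl (-0.34) were not called. Without wt3 or with library totals as scaling Cyp19a1 was not called. In the list 1 gene was called lower without C3, without D7 or with library totals. The part of these markers in the levels of the Zp genes was not tested.

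**Figure D3:**
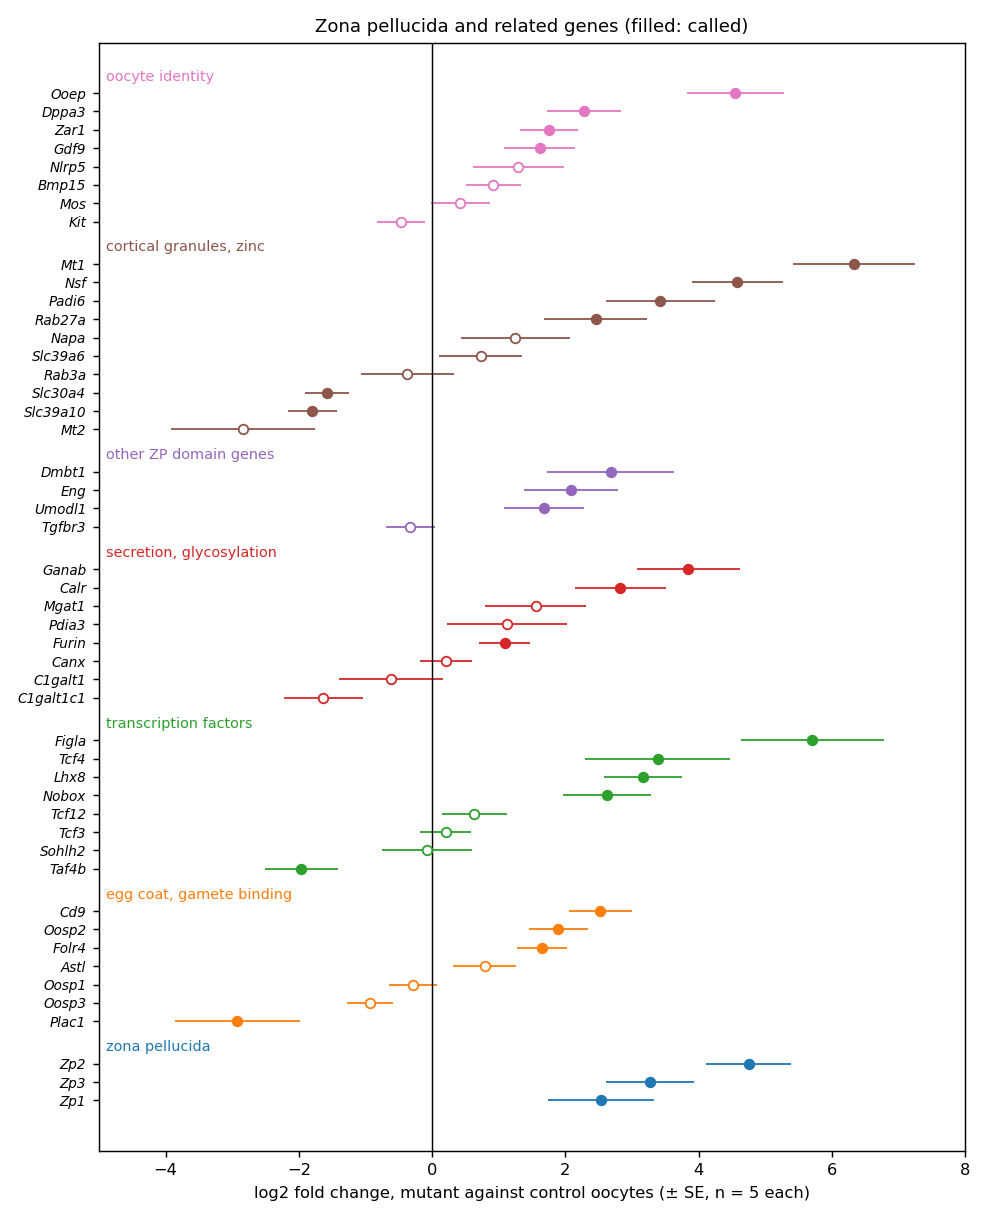
Log2 fold change between mutants and controls with its standard error (n = 5 each) for the Zp genes and the tested genes of 6 lists, with called genes filled. Zp2 (4.75), Zp3 (3.27) and Zp1 (2.54) lie to the right, and in most lists called and uncalled genes stand side by side.

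**Figure D4:**
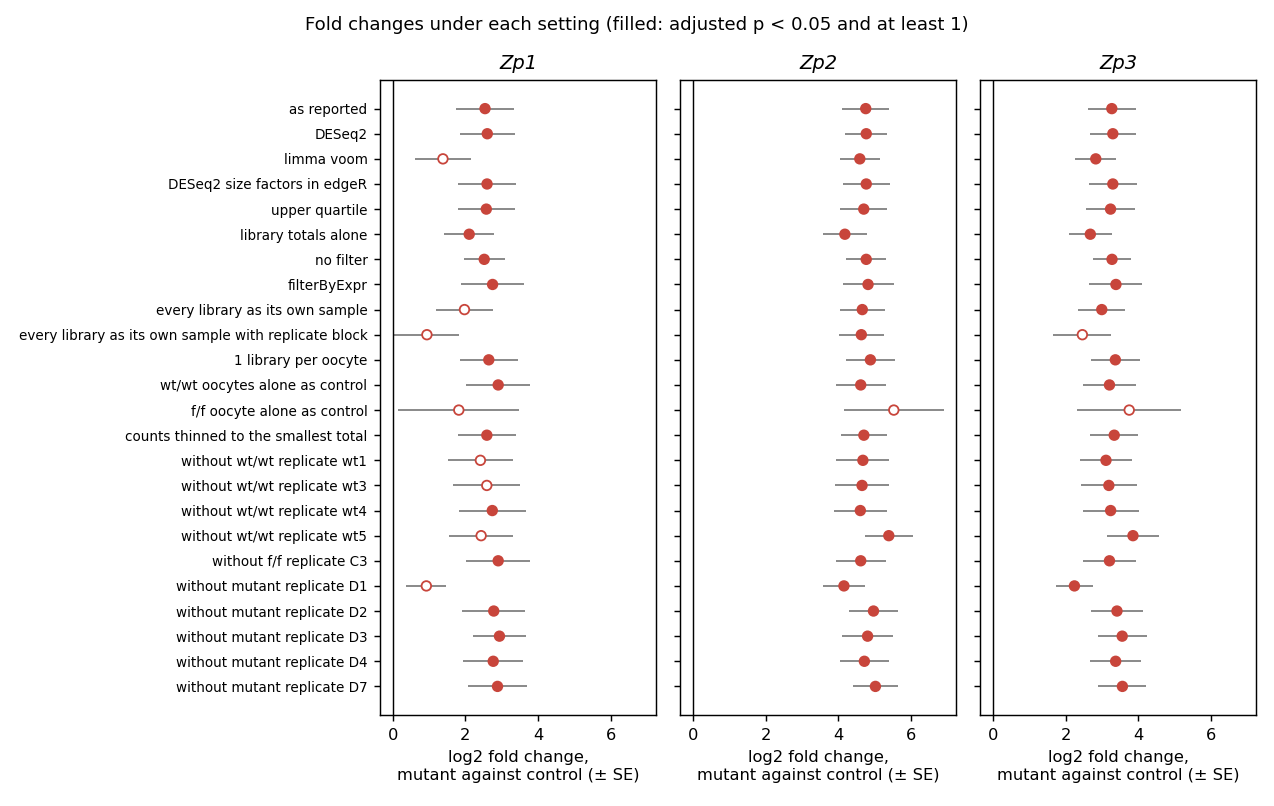
Log2 fold change of Zp1, Zp2 and Zp3 in mutant against control oocytes, with its standard error, as reported and under 23 other settings, with called values filled. Zp2 is called in 22 and Zp3 in 21 of them, and Zp1 in 15, its lowest value being 0.93 without D1.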

How the data were processed

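Reads that were of poor quality or rich in A and T were discarded by the authors, who aligned the rest to mm10 with TopHat and counted unique best alignments per RefSeq gene with HTSeq, and deposited raw counts for 14 libraries. The column written 3C was taken as C3. Strand use in counting is not given in the sources used here. The submitters' processing notes name HTSeq 0.5.3p9, whereas the methods name another release.

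Genes with a count (15432) were kept when in the top 60% by total, as in the study, leaving 9198. The comparison used edgeR 4.0.16 (TMM, glmQLFit, glmQLFTest) in R 4.3.3, with Benjamini-Hochberg adjustment over all genes tested. Standard errors are the log2 fold change over the root of F. Named genes were the Zp genes, Kdm1a, Figla, Tcf3, Astl, Izumo1r and Cd9, the 3 called genes of smallest p per list, and the 3 genes nearest to each Zp gene. Others were named after their values were seen. Exon lengths and coordinates came from GENCODE M21. The procedure was tested on simulated counts. Members and lists were chosen with earlier results of these data known. Alternatives used DESeq2 1.42.0, limma 3.58.1, other scalings, filters and groupings, and thinning to 1375187 counts. Over library totals, 3 counts stand for 0.433 to 2.18 CPM, which covers counting error only.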

Additional observations from a re-analysis of the deposited data

Results flagged for a closer look

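In 7 of 18 sets of 4 or 5 oocytes, an oocyte was set apart from the rest of its set. Its gap was more than the 95% critical share of the range. For normally distributed values chance gives about 1 in 20 sets, or 0.9. Levels were taken as CPM without a log, so that rate need not hold here, and the 7 flags are a description. The sets overlap, since the wt/wt oocytes are also controls. Mutant oocyte D1 stood above the other mutants for Zp1 by 0.864 and for Zp3 by 0.828 of the range (critical value 0.71 for 5 oocytes). The wt/wt oocyte wt5 stood above the others for Zp2 by 0.875 of the range, both among the 4 wt/wt oocytes (critical value 0.829) and among the 5 controls, and for Zp3 by 0.814 among the controls. In the Zp1 to Zp3 log2 ratio wt5 stood below the others by 0.857 of the range among wt/wt oocytes and by 0.730 among controls.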

How the results depend on the processing

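The Zp2 to Zp3 ratio was called in all 15 other settings. When libraries were not summed, Zp1 differed by 1.97 on the log2 scale (adjusted p = 0.0571 from edgeR). The Zp1 to Zp3 ratio then differed by -1.72 and passed 0.05. Both count each of the 2 libraries of C3, D3, D4 and D7 as an oocyte of its own, so their p-values are not those of independent oocytes. With libraries still unsummed, adding the number in the sample descriptions as a replicate block gave 0.94 for Zp1, 2.46 for Zp3 (adjusted p = 0.0614 from edgeR) and 4.63 for Zp2, with 966 genes and 16 listed genes called, against 2885 and 25 without the block and 2384 and 26 with libraries summed. These numbers count libraries, and the 2 libraries of a shared oocyte name carry different numbers. Deviations from the group means of wt/wt and mutant libraries with the same number correlated at 0.08, 0.10 and -0.09. Of these 3 pairs, 1 correlated best with its own number, and 3 pairs are too few to show or exclude a pairing. With the f/f oocyte alone as control the values were 1.82, 5.52 and 3.75 for Zp1, Zp2 and Zp3, none called, with 3 genes called in all and 0 listed genes, which rests on 1 control. With limma voom Zp1 was at 1.38. When C3 was dropped from the controls the Zp1 to Zp2 ratio differed by -2.73 and missed 0.05. Against f/f, Zp2 was called with 1 library per oocyte (5.62) and with DESeq2 (5.58), as was Zp3 with DESeq2 (3.80). With the filterByExpr filter 2 of the transcription factors were called higher in place of 4. The cause of these differences was not tested. Leaving out each oocyte in turn gave 0.93 to 2.93 for Zp1, 1.20 to 3.22 for Zp1 against wt/wt, 4.94 to 5.81 for Zp2 against f/f, -3.74 to -2.33 for the Zp1 to Zp2 ratio and -1.97 to -0.98 for the Zp1 to Zp3 ratio. The f/f against wt/wt difference of Zp3 ran from -0.77 to 0.08, and turned to 0.082 without wt5. Zp2 and Zp3 against control kept their calls without any single oocyte (4.15 to 5.39 and 2.24 to 3.85).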
